A study of Mus musculus with 6 samples.

Results

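Atf3, Gadd45a, Gadd45b, Gadd45g, Ddit3, Ddit4, Cdkn1a and Gdf15 were followed in 6 droplet libraries of single mouse cells, 3 from kidney and 3 from mammary tumor. The 8 genes were taken by symbol from the 31053 genes listed for each tissue, and all 8 were listed in both. Kidney came from male C57BL/6 mice aged 12 weeks. Tumor came from female MMTV-PyMT mice aged 10 weeks, a model in which a mammary tumor virus promoter drives the polyoma middle T oncogene in mammary epithelium. All tissue was minced and digested with type I collagenase, and all recovered cells were treated with DNase I and red cell lysis buffer and sorted as SytoxBlue-negative (viable) before loading. In the platform condition, tissue was digested in a microfluidic device, cells were drawn off at 15 min, the device was reprimed with collagenase, and cells released afterwards were collected at 60 min. Both platform collections passed once through a second device that shears and filters aggregates. In the control, minced tissue was digested for 60 min and then pipetted and vortexed. Per the study's reporting summary, sequencing was done on 1 replicate, and the conditions of a replicate used tissue of the same mouse. Each tissue and condition had 1 library, so no difference below has a replicate check and none was tested. Intervals are exact 95% intervals for counting error only.

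The 8 genes belong to connected programs that halt growth or answer stress. Atf3 encodes a transcription factor of the ATF/CREB family that is induced within minutes to hours by many stresses. Ddit3 encodes CHOP, a C/EBP family factor induced by ATF4 when phosphorylated eIF2 slows translation, and Atf3 is also a target of ATF4. The 3 Gadd45 genes encode small proteins that bind PCNA, the cyclin B1 kinase complex and the stress kinase MAP3K4. Cdkn1a encodes p21, the inhibitor of cyclin-dependent kinases that p53 induces. Ddit4 encodes REDD1, which restrains mTORC1 signaling through TSC1 and TSC2, and Gdf15 encodes a secreted stress cytokine of the TGF-beta superfamily. Several of them are known as genes that tissue digestion itself can induce, and the short and the long digestion interval let their levels be set side by side.

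On mouse build GRCm38, Atf3 spans chr1:191170296-191218039 on the minus strand, Gadd45a chr6:67035096-67037457 (minus), Gadd45b chr10:80930073-80932204 (plus) and Gadd45g chr13:51846678-51848468 (plus). Ddit3 spans chr10:127290774-127296288 (plus), Ddit4 chr10:59949669-59951834 (minus), Cdkn1a chr17:29090976-29100727 (plus) and Gdf15 chr8:70629393-70632456 (minus). Each is annotated as protein coding. All 8 had a promoter entry in the RefSeq table of GRCm38.p6, with 10 start sites in all. Sequence before the start is shown for 5 genes, for Atf3, Gadd45g and Cdkn1a because they hold motifs of the ATF, C/EBP or p53 families and for Gadd45a and Gadd45b to set the 3 Gadd45 genes side by side. The capitals mark TTGCATCA (the C/EBP-ATF composite element), TTACGTCA (a CRE-like element), ATTTGCAT (the octamer), TATAAA (the TATA box) and a match to the p53 motif, each searched on both strands.
Atf3, chr1:191183334-191183483, minus strand: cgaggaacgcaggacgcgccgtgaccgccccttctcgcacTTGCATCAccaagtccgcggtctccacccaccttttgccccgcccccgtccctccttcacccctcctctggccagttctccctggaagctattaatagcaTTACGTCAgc
Gadd45a, chr6:67037448-67037557, minus strand: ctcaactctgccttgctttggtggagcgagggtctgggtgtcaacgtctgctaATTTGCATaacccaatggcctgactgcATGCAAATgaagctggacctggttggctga
Gadd45b, chr10:80929941-80930082, plus strand: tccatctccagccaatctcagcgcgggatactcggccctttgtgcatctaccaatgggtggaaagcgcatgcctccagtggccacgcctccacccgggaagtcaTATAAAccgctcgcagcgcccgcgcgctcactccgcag
Gadd45g, chr13:51846525-51846674, plus strand: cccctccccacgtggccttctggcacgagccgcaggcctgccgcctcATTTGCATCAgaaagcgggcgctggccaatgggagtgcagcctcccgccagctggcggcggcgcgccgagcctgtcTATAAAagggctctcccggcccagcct
Cdkn1a, upstream start site, chr17:29090829-29090978, plus strand: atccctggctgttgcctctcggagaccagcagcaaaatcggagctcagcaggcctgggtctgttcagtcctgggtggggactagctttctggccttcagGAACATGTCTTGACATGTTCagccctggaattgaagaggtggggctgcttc

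TTGCATCA was found before Atf3 (first base at -110 from the start) and Gadd45g (-101), and in 0.895% of 32851 RefSeq promoters of the same length (250 bases before to 50 after a start). TTACGTCA was found before Atf3 at -10 and in 0.499% of promoters. ATTTGCAT was found before Gadd45a at -97 and, on the other strand, at -70, and before Gadd45g at -103, where it overlaps TTGCATCA. It was present in 1.74% of promoters. TATAAA was found before Gadd45b at -46 and Gadd45g at -27, and in 13.6% of promoters. The p53 motif, counted where at least 19 of 20 positions matched, was found from -51 to -32 before the upstream start of Cdkn1a and in 0.0883% of promoters. The full CRE (TGACGTCA, 1.79% of promoters) was in none of the 10 windows, and the AP-1 element (TGACTCA, 5.20%) was only before Ddit3, at -242. These matches describe letters in a fixed window. The libraries count the 3′ ends of transcripts, so they do not show which start was used.

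After filtering on genes and mitochondrial UMIs, the kidney libraries held 5886 control, 8390 15 min and 9936 60 min cells with 33644880 to 61434200 UMIs, and the tumor libraries 5736, 5802 and 6024 cells with 50661627 to 58014175 UMIs. Cells were assigned to a class when at least 3 of its 8 marker genes were detected and at least 2 more than of any other class. This placed 73.6, 91.4 and 81.8% of kidney cells and 93.7, 96.7 and 93.5% of tumor cells (control, 15 min and 60 min, the order used throughout). A class is therefore a range of marker counts rather than a proven cell type, and its name below means cells like that type. In kidney, the control, 15 min and 60 min libraries had 606, 889 and 598 gated cells at the minimum of 3 markers, and in the tumor 180, 90 and 153. In the kidney macrophage class, macrophage markers had summed levels of 14570, 16460 and 13140 CPM (UMIs per 1000000 UMIs of the class in that library). Kidney proximal tubule markers in that class measured 53.1, 139 and 80.3 CPM. The gate selects cells on these same markers, so such levels do not check what the cells are. The kidney libraries differed in makeup. Proximal tubule cells were 33.2, 78.7 and 21.7% of cells, endothelial cells 9.80, 4.67 and 25.2%, and macrophages 14.3, 1.57 and 14.6%. Median mitochondrial UMIs per cell were 7.38, 20.4 and 8.59% in kidney and 6.55 to 7.54% in the tumor. At most 211 cell barcodes (1.75% of the smaller library) were shared between any pair of libraries.

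Across whole kidney libraries, every one of the 8 genes was lowest in the 15 min library. The share of all genes lowest there was not counted, and the median gene was also below the control at 15 min (-0.39 on the log2 scale). Atf3 measured 466, 17.8 and 1040 CPM in the control, 15 min and 60 min libraries, here per 1000000 UMIs of the library. Gadd45b measured 182, 4.35 and 177 CPM and Cdkn1a 170, 16.7 and 272 CPM. The 15 min level of Gadd45b was 41.9-fold (95% interval 37.0 to 47.5), of Atf3 26.2-fold (24.6 to 27.9) and of Cdkn1a 10.2-fold (9.54 to 10.9) below the control. Gadd45g measured 123, 37.3 and 180 CPM, Ddit3 44.0, 8.37 and 65.5 CPM, and Gdf15 32.9, 10.0 and 46.5 CPM. Gadd45a measured 35.4, 11.6 and 26.8 CPM and Ddit4 18.0, 5.44 and 23.4 CPM. For these 5 genes the 15 min library was 3.06-fold (Gadd45a) to 5.26-fold (Ddit3) below the control. All 8 of 8 members were thus at least 2-fold lower at 15 min than in the control, where 26.9% of all 13454 tested genes were. With all deposited cells 5 of 8 were (beside 20.4% of genes), and the ratios of Ddit4 (0.562), Gadd45g (0.668) and Gdf15 (0.569) no longer passed 2-fold. At 60 min, 1 of 8 members, Atf3, was at least 2-fold above the control (2.23-fold), beside 7.62% of genes. All 8 were at least 2-fold higher at 60 than at 15 min, beside 39.1% of genes. The median gene differed by -0.39 (15 min over control), 0.21 (60 min over control) and 0.64 (60 over 15 min) on the log2 scale, and the values given are not corrected for that shift.

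In whole tumor libraries 6 of 8 members were lowest at 15 min, all but Atf3 and Ddit4. The share of all genes lowest at 15 min was not counted. Atf3 measured 824, 859 and 1326 CPM, so the 15 min tumor library was 1.04-fold (1.03 to 1.06) above its control. The median tumor gene was shifted by 0.22 on the log2 scale in this comparison, and divided by it the Atf3 ratio was 0.896, below 1. Gadd45b measured 325, 122 and 410 CPM, Cdkn1a 269, 160 and 279 CPM and Gdf15 25.7, 10.6 and 137 CPM. Gadd45g measured 74.5, 44.4 and 212 CPM. Gadd45a measured 47.6, 37.8 and 39.1 CPM, Ddit3 55.3, 51.3 and 61.8 CPM and Ddit4 46.5, 56.3 and 77.9 CPM. At 15 min, 2 of 8 members (Gadd45b, 2.67-fold, and Gdf15, 2.42-fold) were at least 2-fold below the control, beside 3.06% of genes. At 60 min, 2 of 8 (Gadd45g, 2.84-fold, and Gdf15, 5.34-fold) were at least 2-fold above it, beside 7.42% of genes. Between the platform libraries, 3 of 8 (Gadd45b, Gadd45g and Gdf15) were at least 2-fold higher at 60 min, beside 7.93% of genes. The ratios of both platform libraries to the control share that control.

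**Figure D1:**
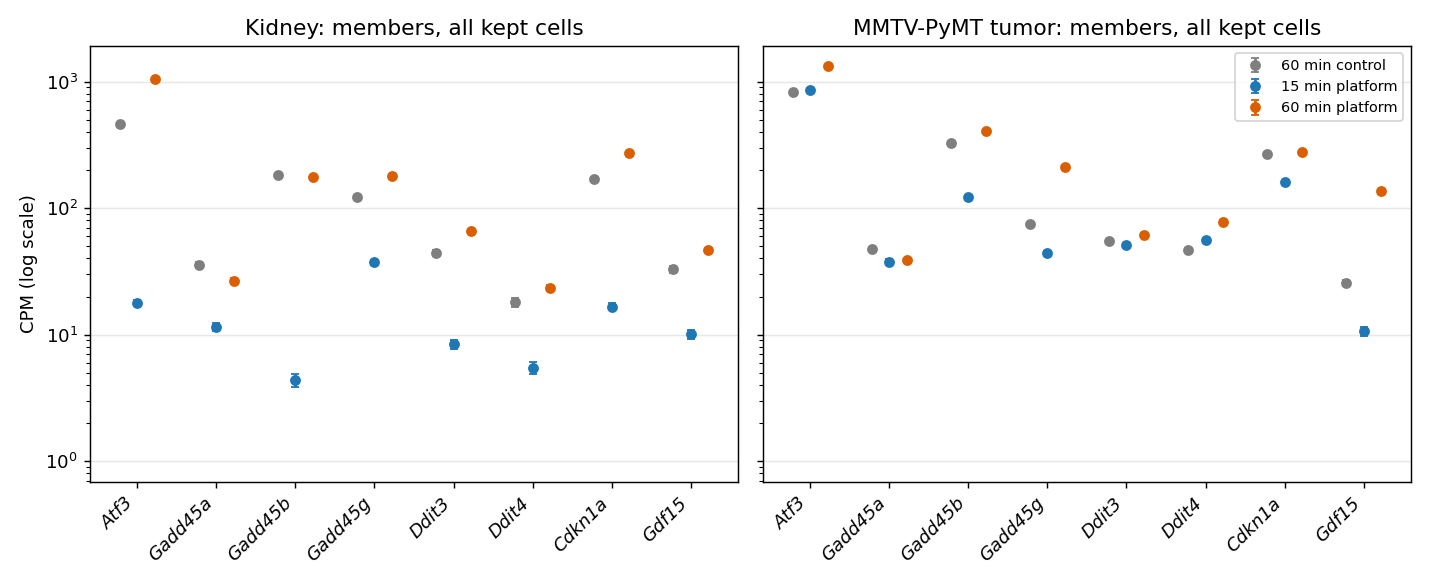
CPM of the 8 genes over all kept cells (y axis, log scale) in the 60 min control, 15 min platform and 60 min platform libraries of kidney (left) and MMTV-PyMT tumor (right); bars are exact 95% counting intervals of single libraries. In kidney every 15 min point lies lowest, from 4.35 to 37.3 CPM, whereas tumor Atf3 at 15 min (859 CPM) lies beside its control (824 CPM).

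A whole-library level mixes what each cell holds with which cells were recovered. When the rates of each class were weighted by the control's makeup, the kidney 15 min to control ratio of Atf3 was 0.444 in place of 0.0382, of Cdkn1a 0.339 in place of 0.0981 and of Gadd45b 0.107 in place of 0.0239. The classes with at least 20 cells in both libraries, and the ungated cells, covered 96.3% of the control's UMIs in this step. Gadd45a at 0.452, Gadd45g at 0.489, Ddit3 at 0.434 and Gdf15 at 0.306 stayed below 0.5, and Ddit4 moved from 0.301 to 0.826. In the tumor 60 min library the ratio of Gadd45g went from 2.84 to 1.56 and that of Gdf15 from 5.34 to 4.20, whereas Ddit4 went from 1.67 to 2.06. Makeup weighting was added after the data were seen.

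The classes that held each gene's UMIs differed between members. Macrophages held 61.0, 70.6 and 66.3% of kidney Atf3 UMIs in the 3 libraries, although they were only 1.57% of cells at 15 min. Endothelial cells held 37.6, 58.6 and 47.6% of kidney Cdkn1a UMIs. Proximal tubule cells held 16.6, 74.9 and 17.7% of kidney Gadd45g UMIs. Of all kidney UMIs, macrophages held 17.2, 1.18 and 17.1%, endothelial cells 7.17, 2.52 and 19.5% and proximal tubule cells 43.2, 87.0 and 29.8%. Proximal tubule cells thus held less of the Gadd45g UMIs than of all UMIs in each library. In the tumor, epithelial cells held 72.6, 46.6 and 33.7% of Atf3 UMIs and macrophages 20.7, 49.4 and 48.6%. Macrophages also held 69.8, 59.5 and 88.6% of tumor Gdf15 UMIs, while epithelial cells held 72.1, 90.7 and 72.9% of tumor Ddit4 UMIs. Fibroblasts held 10.0, 7.7 and 30.6% of tumor Gadd45g UMIs. Of all tumor UMIs, epithelial cells held 62.0, 72.3 and 42.9%, macrophages 22.9, 17.15 and 30.1% and fibroblasts 0.794, 1.01 and 5.47%.

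**Figure D2:**
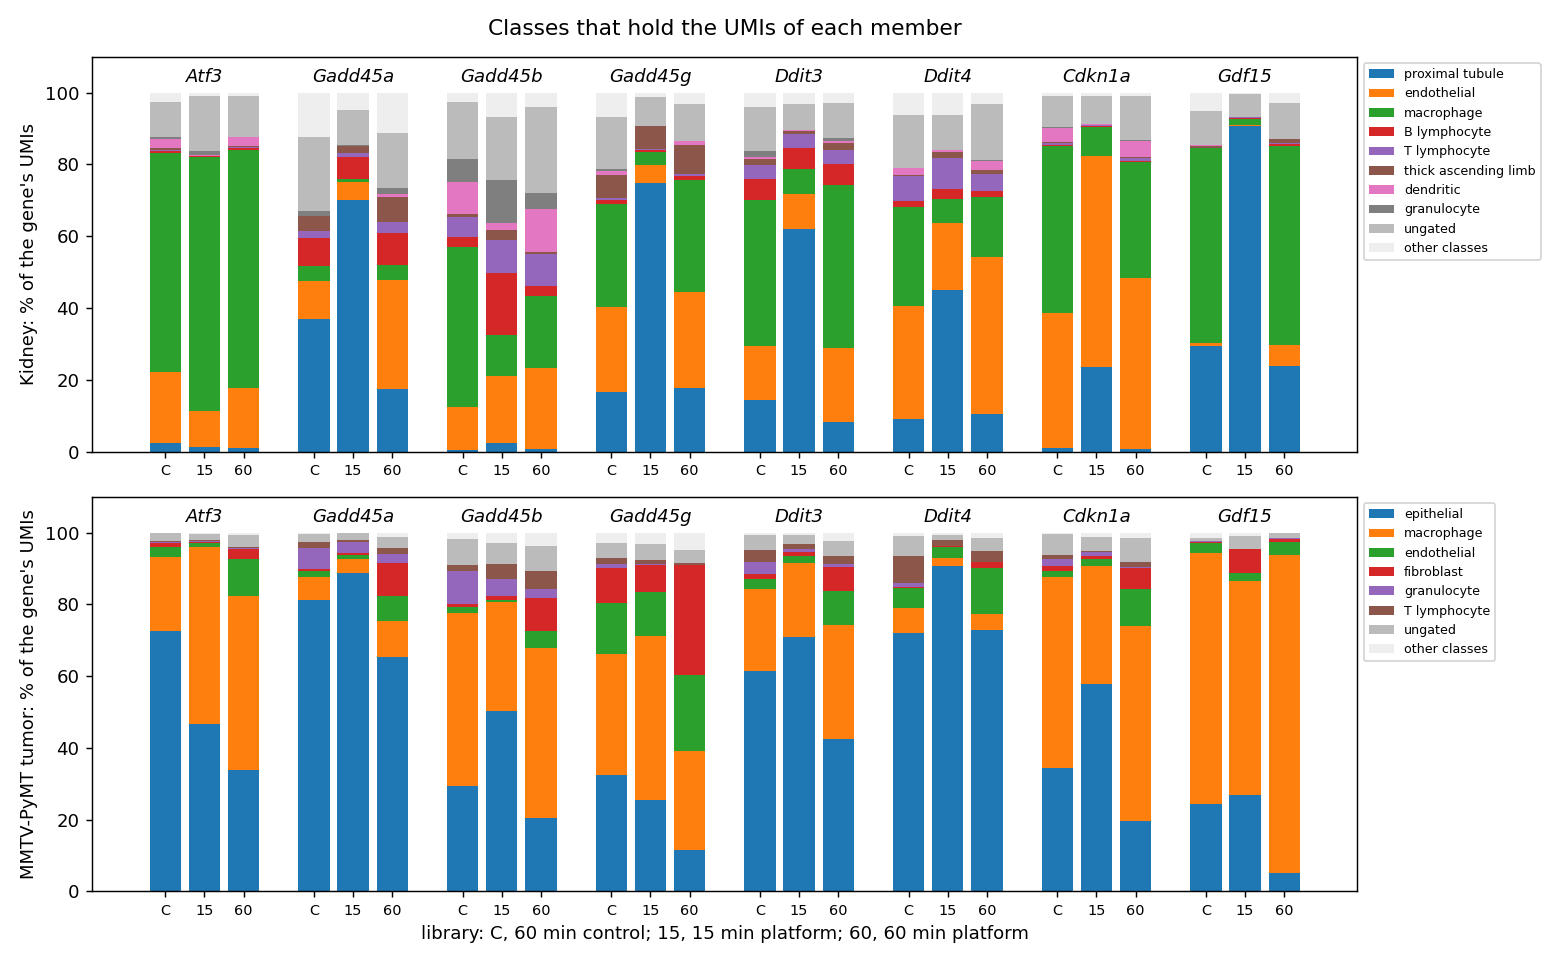
Share of each gene's UMIs (y axis, %) that lay in each gated class, the ungated cells and all other classes, for the control (C), 15 min (15) and 60 min (60) libraries of kidney (top) and tumor (bottom). Proximal tubule cells held 74.9% of kidney Gadd45g UMIs at 15 min, beside 87.0% of all UMIs there. Macrophages held 88.6% of tumor Gdf15 UMIs at 60 min, beside 30.1% of all UMIs.

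In the control libraries both transcription factor genes had broad but uneven ranges. Kidney Atf3 was highest in macrophages at 1652 CPM (1619 to 1685), followed by granulocytes at 1317, endothelial cells at 1301, intercalated cells at 1095, stromal cells at 1068 and dendritic cells at 635 CPM. Thick ascending limb cells stood at 211 CPM, and distal convoluted tubule, B, T, collecting duct principal, NK and proximal tubule cells followed between 99.0 and 24.2 CPM. Of the 12 neighbouring pairs in that order, 7 had overlapping intervals, among them granulocytes with endothelial cells and every pair from the distal convoluted tubule down. In the tumor control, Atf3 ran from fibroblasts at 1260 over epithelial cells at 965, macrophages at 744, endothelial cells at 617 and granulocytes at 249 to T cells at 17.5 CPM, and no neighbouring intervals overlapped. Ddit3 was flatter. It was highest in granulocytes of both tissues, at 326 CPM in kidney (only 36 cells, with a median of 1978 UMIs) and 148 CPM in the tumor. The remaining kidney classes lay between 104.5 and 13.3 CPM, with 11 of 12 neighbouring pairs overlapping, and the remaining tumor classes between 92.0 and 44.8 CPM.

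The 3 Gadd45 genes had different leading classes. Gadd45a was highest in intercalated cells of kidney at 412 CPM, then granulocytes at 209 CPM, and lowest in macrophages at 8.45 and dendritic cells at 1.67 CPM. In the tumor it was again high in granulocytes, at 232 CPM, and lowest in macrophages at 13.4 CPM. Gadd45b led in granulocytes of both tissues, at 5152 CPM in kidney and 2526 CPM in the tumor, with dendritic cells at 925 CPM in kidney and macrophages at 472 and 684 CPM next among myeloid classes. Gadd45g led in the supporting cells, at 1027 CPM in kidney stromal cells (only 21 cells) and 937 CPM in tumor fibroblasts (40 cells). Kidney thick ascending limb followed at 602 CPM and endothelial cells at 409 CPM. Proximal tubule cells had 2.27 CPM of Gadd45b and 47.5 CPM of Gadd45g. The order of these 3 genes across classes thus differed, and levels are not compared between genes because 3′ counts depend on each transcript.

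Cdkn1a, the p21 gene, was highest in kidney endothelial cells at 891 CPM (854 to 930), with macrophages at 457 and dendritic cells at 392 CPM next and proximal tubule cells last at 4.06 CPM. In the tumor it was highest in macrophages at 624 CPM, while endothelial cells there had 137 CPM. Ddit4 was highest in kidney endothelial cells at 79.2 CPM and in tumor T cells at 78.3 and endothelial cells at 76.7 CPM, which overlapped. All 12 neighbouring kidney pairs overlapped for Ddit4. Gdf15 was highest in kidney collecting duct principal cells at 111 CPM and macrophages at 104 CPM, which overlapped, and it was at 0 UMIs in the kidney control's NK, T, distal convoluted tubule and granulocyte classes. In the tumor, macrophages led with 78.3 CPM and T cells had 0.895 CPM. Proximal tubule levels of Atf3, Gadd45b and Cdkn1a were the lowest of all kidney classes, and at this level free RNA and expression in those cells cannot be told apart.

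**Figure D3:**
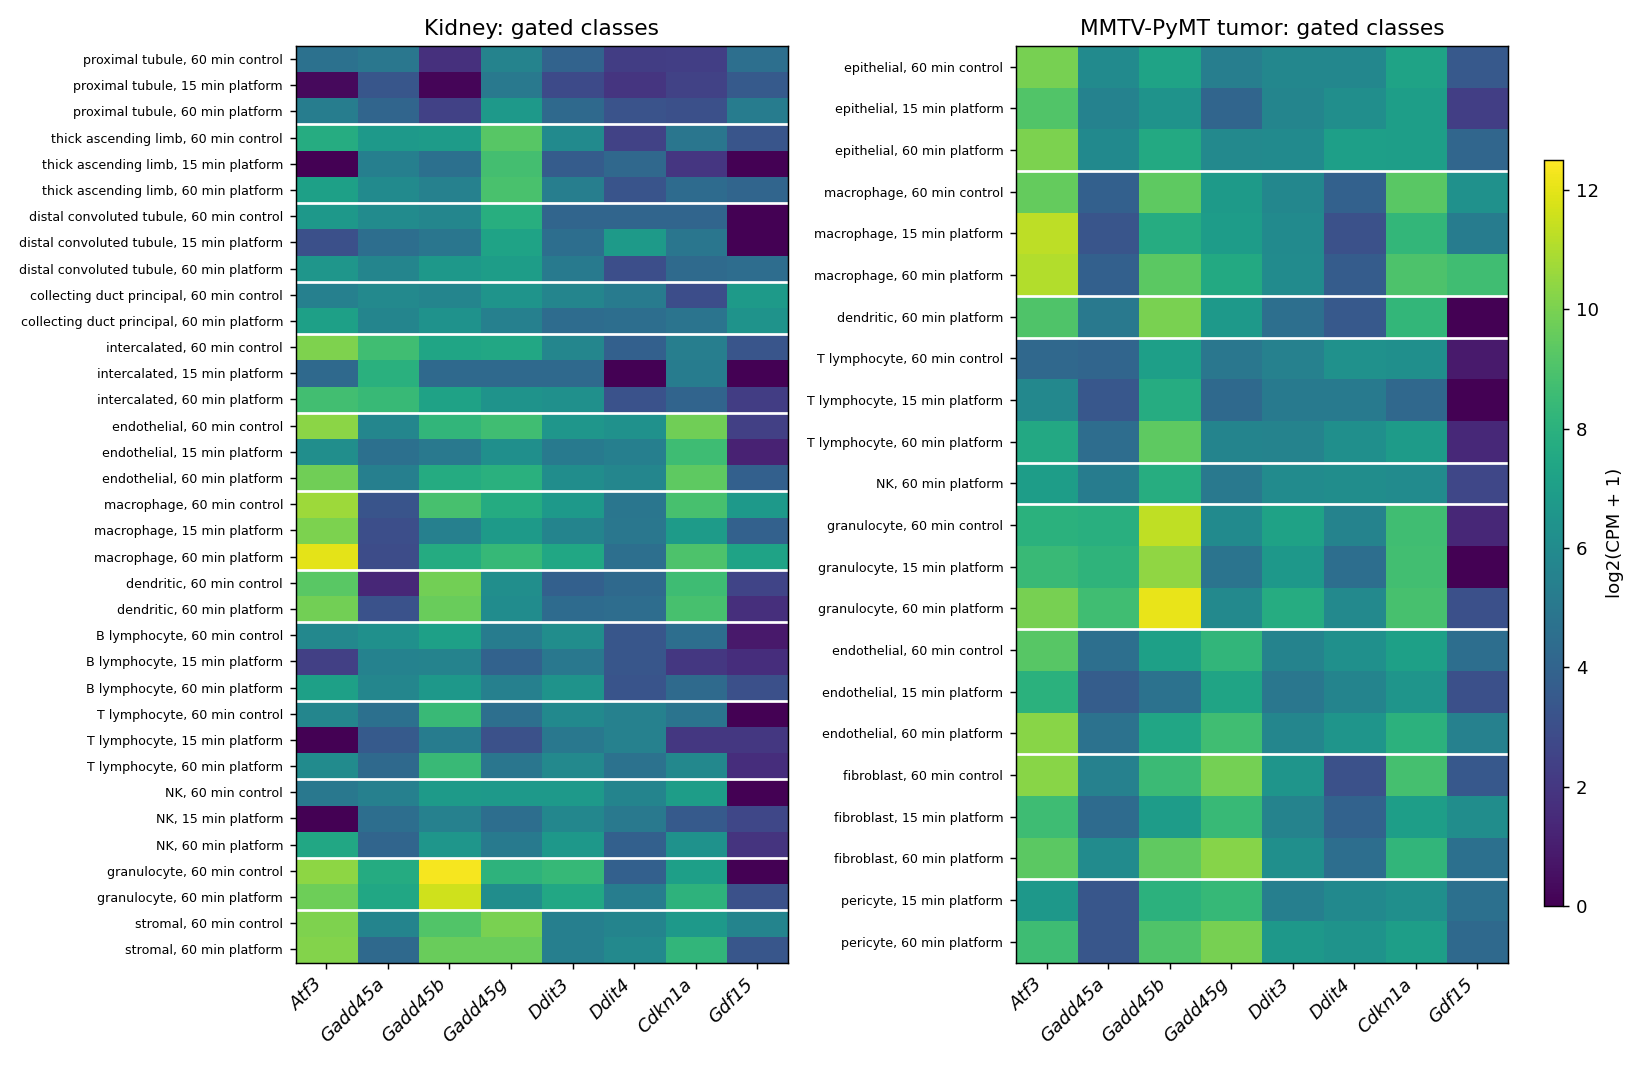
log2(CPM + 1) of the 8 genes (columns) in every gated class and library with at least 20 cells (rows) in kidney (left) and tumor (right), on one color scale. Granulocyte rows are brightest for Gadd45b (5152 CPM in the kidney control), stromal and fibroblast rows for Gadd45g (1027 and 937 CPM in the controls), and the 15 min endothelial row of kidney is darker for Atf3 (71.0 CPM) than the control and 60 min rows of that class.

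Kidney endothelial cells, of which 577, 392 and 2501 were gated, had lower levels of nearly the whole set at 15 min. Atf3 measured 1301 CPM (1256 to 1347) in the control, 71.0 (58.3 to 85.5) at 15 min and 882 (864 to 901) at 60 min. The 15 min value was 18.3-fold below the control (15.2 to 22.4), and the 60 min value was 1.47-fold below it (1.42 to 1.54). Ddit3 measured 92.5, 32.9 and 69.3 CPM. Among the Gadd45 genes, Gadd45b measured 299, 32.2 and 205 CPM, Gadd45g 409, 72.9 and 245 CPM, and Gadd45a 52.2, 23.2 and 41.7 CPM. They were 9.27-fold (6.96 to 12.6), 5.62-fold (4.62 to 6.88) and 2.25-fold (1.54 to 3.36) below the control at 15 min. The gene for p21, Cdkn1a, measured 891, 387 and 664.5 CPM, which was 2.30-fold lower at 15 min. Ddit4 measured 79.2, 40.6 and 52.4 CPM, and Gdf15 was near the detection limit with 10, 2 and 137 UMIs (4.15, 1.29 and 13.4 CPM). At 15 min 7 of 8 members were at least 2-fold below the control, all but Ddit4 (1.95-fold), beside 3.24% of genes, and the interval of Gdf15 (3.21-fold, 0.685 to 30.2) included no difference. Only Gdf15, 1 of 8 and with 10 control UMIs, was at least 2-fold above the control at 60 min (3.24-fold), beside 1.13% of genes. Against 15 min, 5 of 8 were at least 2-fold higher at 60 min (Atf3, Ddit3, Gadd45b, Gadd45g and Gdf15), beside 2.56% of genes. Median UMIs per cell were 4120, 3788 and 3839. Proximal tubule markers in this class measured 66.8, 211 and 97.8 CPM and macrophage markers 27.4, 25.2 and 105 CPM; their part in the result was not tested. After thinning each cell to 1000 UMIs, Atf3 was detected in 37.2, 4.42 and 29.9% of endothelial cells and Cdkn1a in 40.9, 26.0 and 35.6%.

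Kidney macrophages, of which 842, 132 and 1454 were gated, combined high Atf3 in every library with low Gadd45b at 15 min. Atf3 measured 1652, 1063 and 4043 CPM, which was 1.55-fold (1.44 to 1.68) below the control at 15 min and 2.45-fold (2.39 to 2.50) above it at 60 min. Detection of Atf3 in thinned cells was 48.3, 38.8 and 74.5%. Gadd45b measured 472, 42.7 and 208 CPM, so it was 11.1-fold (7.77 to 16.3) below the control at 15 min and still 2.27-fold (2.14 to 2.41) below it at 60 min. The neighbouring family member Gadd45g had its highest level at 60 min, at 205, 112 and 329 CPM, while Gadd45a stayed low at 8.45, 6.88 and 6.61 CPM. Ddit3 measured 104, 49.6 and 174 CPM. Cdkn1a measured 457, 114 and 513 CPM and the cytokine gene Gdf15 104, 13.8 and 151 CPM, which was 3.999-fold and 7.53-fold (4.07 to 15.8) lower at 15 min than in the control. Ddit4 measured 28.8, 30.3 and 23.0 CPM. Its 15 min ratio to the control, 1.05 (0.641 to 1.64), included no difference, and its 60 min ratio was 0.797 (0.647 to 0.984). In counts, 4 of 8 members were at least 2-fold lower at 15 min (Gadd45b, Ddit3, Cdkn1a and Gdf15), beside 5.67% of genes. At 60 min 1 of 8 was at least 2-fold above the control (Atf3, beside 1.64% of genes) and 1 of 8 at least 2-fold below it (Gadd45b, beside 0.281%). Against 15 min, 6 of 8 were at least 2-fold higher at 60 min, beside 7.20% of genes. The 15 min macrophage values rest on 132 cells with a median of 5370 UMIs, against 6930 and 6102 UMIs in the other libraries.

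Proximal tubule cells (1952, 6604 and 2157) held little of most members. Atf3 measured 24.2, 0.262 and 37.8 CPM, from 352, 14 and 590 UMIs. The 15 min level was 92.5-fold (54.4 to 171) below the control, at 14 UMIs in 6604 cells. At such levels free RNA and expression in these cells cannot be told apart. Whole-library Atf3 had the same order (466, 17.8 and 1040 CPM), and the part of free RNA was not tested. Gadd45b measured 2.27, 0.112 and 4.36 CPM, from 33, 6 and 68 UMIs. Gadd45g was highest at 60 min, at 47.5, 32.1 and 107 CPM, and Gadd45a measured 30.3, 9.32 and 15.8 CPM. Ddit3 measured 14.6, 5.95 and 18.2 CPM and Gdf15 22.4, 10.4 and 37.4 CPM. Ddit4 at 3.78, 2.81 and 8.27 CPM and Cdkn1a at 4.06, 4.53 and 7.18 CPM were near the bottom of the range. At 15 min 5 of 8 members were at least 2-fold below the control (Atf3, Gadd45a, Gadd45b, Ddit3 and Gdf15), beside 1.05% of genes. At 60 min 2 of 8 (Gadd45g, 2.25-fold, and Ddit4, 2.19-fold) were at least 2-fold above it, beside 3.52% of genes, but with cells weighted equally 0 of 8 were. The 60 min level was at least 2-fold above the 15 min level for 6 of 8, all but Gadd45a and Cdkn1a, beside 4.97% of genes.

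The proximal tubule counts moved with mitochondrial content. Median mitochondrial UMIs of the class were 15.5, 22.2 and 17.1%. Among the 706, 524 and 522 cells with at most 10% mitochondrial UMIs, a limit added after the data were seen, Atf3 stayed far lower at 15 min (21.8, 0.505 and 31.9 CPM). Gadd45a measured 34.0, 17.7 and 16.7 CPM, Ddit3 19.9, 12.6 and 22.1 CPM, and Gdf15 24.1, 16.2 and 36.1 CPM, each less than 2-fold below the control at 15 min. Gadd45g turned to 56.6, 68.7 and 107 CPM. Only 5 members were tested in these cells. Of them 1 was at least 2-fold lower at 15 min (beside 0.294% of genes), 0 were at least 2-fold above the control at 60 min (beside 1.42%) and 2 were at least 2-fold higher at 60 than at 15 min (beside 0.617%). Gadd45b was left with 12, 0 and 26 UMIs there and was not tested.

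The smaller kidney classes repeated the direction of Atf3 and Gadd45b. Atf3 had an interval wholly below the control at 15 min in 7 of 7 classes where it was tested (at least 100 UMIs over the 3 libraries) and was at least 2-fold lower in 6 of them, macrophages being the exception. B cells had 56.0, 4.12 and 137 CPM of Atf3 and T cells 51.5, 0 and 64.2 CPM. With the 0 UMIs of T cells at 15 min set to a floor of 3 counts, their level was 11.2-fold below the control, which is not a bound. Thick ascending limb cells had 211, 0 and 137 CPM of Atf3, 24.2-fold below the control at 15 min with the same floor. Intercalated cells had 1095, 18.2 and 426 CPM from only 43, 22 and 43 cells. Gadd45b was at least 2-fold lower at 15 min in 6 of 6 tested classes, with T cells at 354, 36.9 and 349 CPM and B cells at 135, 47.4 and 101 CPM. In counts, 4 of 5 tested members were at least 2-fold lower at 15 min in B cells, beside 2.77% of genes, and 3 of 5 in T cells, beside 5.00%. Gadd45g of the thick ascending limb (602, 433 and 486 CPM) and Gadd45a of intercalated cells (412, 246 and 341 CPM) were lower at 15 min by less than 2-fold. Median mitochondrial UMIs of the thick ascending limb class were 18.5, 36.0 and 30.8%. Ddit4 had an interval below the control in 1 of 4 tested classes and at least 2-fold lower in 0 of 4.

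**Figure D4:**
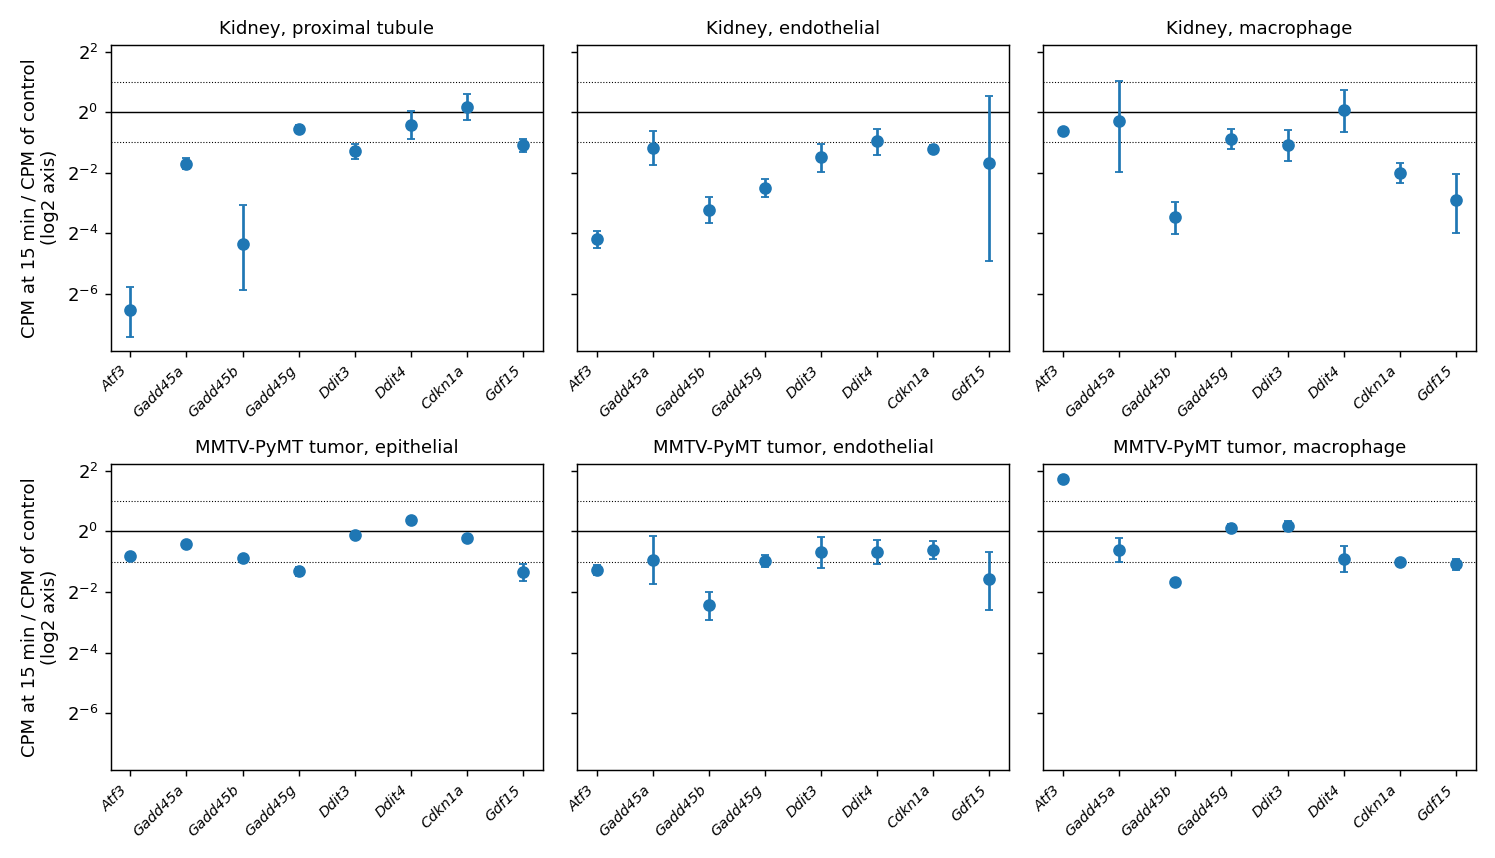
Ratio of CPM at 15 min to CPM of the control (y axis, log2 axis) for the 8 genes in 3 kidney and 3 tumor classes; bars are exact 95% counting intervals, the solid line marks no difference and dotted lines 2-fold. Kidney Atf3 lies lowest in proximal tubule cells (0.0108), where free RNA and expression cannot be told apart, and endothelial cells (0.0545). Tumor macrophage Atf3 lies above the upper dotted line (3.32) while Gadd45b lies below the lower one (0.314).

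Tumor epithelial cells, the compartment in which the oncogene is driven, numbered 3448, 3955 and 2550. Their Atf3 measured 965 CPM (954 to 976), 553 (546 to 561) and 1043 (1030 to 1055), and was 1.74-fold (1.71 to 1.77) below the control at 15 min. Ddit3 was nearly level at 54.8, 50.3 and 61.2 CPM. Gadd45b measured 154, 84.5 and 195 CPM, Gadd45g 39.1, 15.7 and 57.3 CPM and Gadd45a 62.3, 46.4 and 59.4 CPM. Cdkn1a varied little, at 149, 128 and 127 CPM. Ddit4 took another course and was lowest in the control, at 54.1, 70.6 and 132 CPM, or 2.45-fold (2.31 to 2.60) above the control at 60 min. Gdf15 was low, at 10.1, 3.96 and 16.7 CPM. At 15 min 2 of 8 members (Gadd45g, 2.50-fold, and Gdf15, 2.56-fold) were at least 2-fold below the control, beside 2.06% of genes. At 60 min 1 of 8, Ddit4, was at least 2-fold above it, beside 1.56%. The 60 min level was at least 2-fold above the 15 min level for 3 of 8 (Gadd45b, Gadd45g and Gdf15), beside 2.31%. Median UMIs per epithelial cell were 8282, 9780 and 9220.

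Tumor macrophages (988, 971 and 1488 cells) split the set. Atf3 measured 744 CPM (728 to 760), 2472 (2440 to 2504) and 2137 (2116 to 2159), so it was 3.32-fold (3.24 to 3.41) and 2.87-fold (2.81 to 2.94) above the control in the platform libraries. The same cells had 684, 214 and 647 CPM of Gadd45b, which was 3.19-fold (3.04 to 3.35) below the control at 15 min. Cdkn1a measured 624, 307 and 506 CPM, and Gdf15 78.3, 36.9 and 403 CPM. At 15 min Cdkn1a was 2.03-fold (1.94 to 2.12) and Gdf15 2.12-fold (1.87 to 2.41) lower, and at 60 min Gdf15 was 5.15-fold (4.81 to 5.53) above the control. Gadd45g at 110, 118 and 193 CPM was higher at 60 min only, and Ddit3 stayed at 54.9, 61.7 and 65.4 CPM. Gadd45a at 13.4, 8.72 and 13.1 CPM and Ddit4 at 14.0, 7.44 and 11.3 CPM were low throughout. At 15 min 1 of 8 members was at least 2-fold higher (beside 8.32% of genes) and 3 of 8 at least 2-fold lower (beside 4.24%). At 60 min 2 of 8, Atf3 and Gdf15, were at least 2-fold above the control, beside 2.90%. Against 15 min, 2 of 8, Gadd45b and Gdf15, were at least 2-fold higher at 60 min, beside 2.74%. Without the limits on genes and mitochondrial UMIs, the number lower at 15 min was 1 of 8, beside 3.92% of genes. Thinned detection was 35.3, 65.0 and 68.4% for Atf3, 40.8, 15.5 and 40.6% for Gadd45b and 5.23, 1.36 and 13.4% for Gdf15, at median depths of 11920, 9471 and 11770 UMIs. The 10% of macrophages with the most Atf3 UMIs held 53.2, 28.0 and 30.5% of them.

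Tumor endothelial cells (319, 254 and 790) had lower levels of all 8 members at 15 min than in the control. The share of all genes lower by any amount was not counted, and the median gene was shifted by 0.11 on the log2 scale. Atf3 measured 617, 254 and 1251 CPM, which was 2.43-fold (2.18 to 2.71) below the control at 15 min and 2.03-fold (1.90 to 2.16) above it at 60 min. Gadd45b measured 137, 25.4 and 168 CPM, a 5.41-fold (3.96 to 7.51) lower level at 15 min. Gadd45g measured 303, 155 and 402 CPM, Cdkn1a 137, 89.7 and 257 CPM and Gdf15 21.8, 7.26 and 44.7 CPM. All 3 were highest at 60 min, as were Ddit4 at 76.7, 48.2 and 91.0 CPM and Ddit3 at 47.5, 29.6 and 52.8 CPM, whose control and 60 min intervals overlapped. Gadd45a measured 22.9, 11.9 and 25 CPM. At 15 min 3 of 8 members (Atf3, Gadd45b and Gdf15) were at least 2-fold below the control, beside 2.03% of genes. At 60 min 2 of 8 (Atf3 and Gdf15) were at least 2-fold above it, beside 0.885%, both by small margins (2.03-fold and 2.06-fold). Against 15 min, 6 of 8 were at least 2-fold higher at 60 min, all but Ddit3 and Ddit4, beside 2.35%. The control cells of this class had a median of 4570 UMIs and 10.0% mitochondrial UMIs, against 7617 and 8186 UMIs and 6.18 and 5.95% in the platform libraries. Among cells with at most 10% mitochondrial UMIs, 6 of 8 members were at least 2-fold lower at 15 min (beside 2.42% of genes) and 0 of 8 at least 2-fold above the control at 60 min (beside 0.806%), and Atf3 measured 757, 278 and 1334 CPM.

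**Figure D5:**
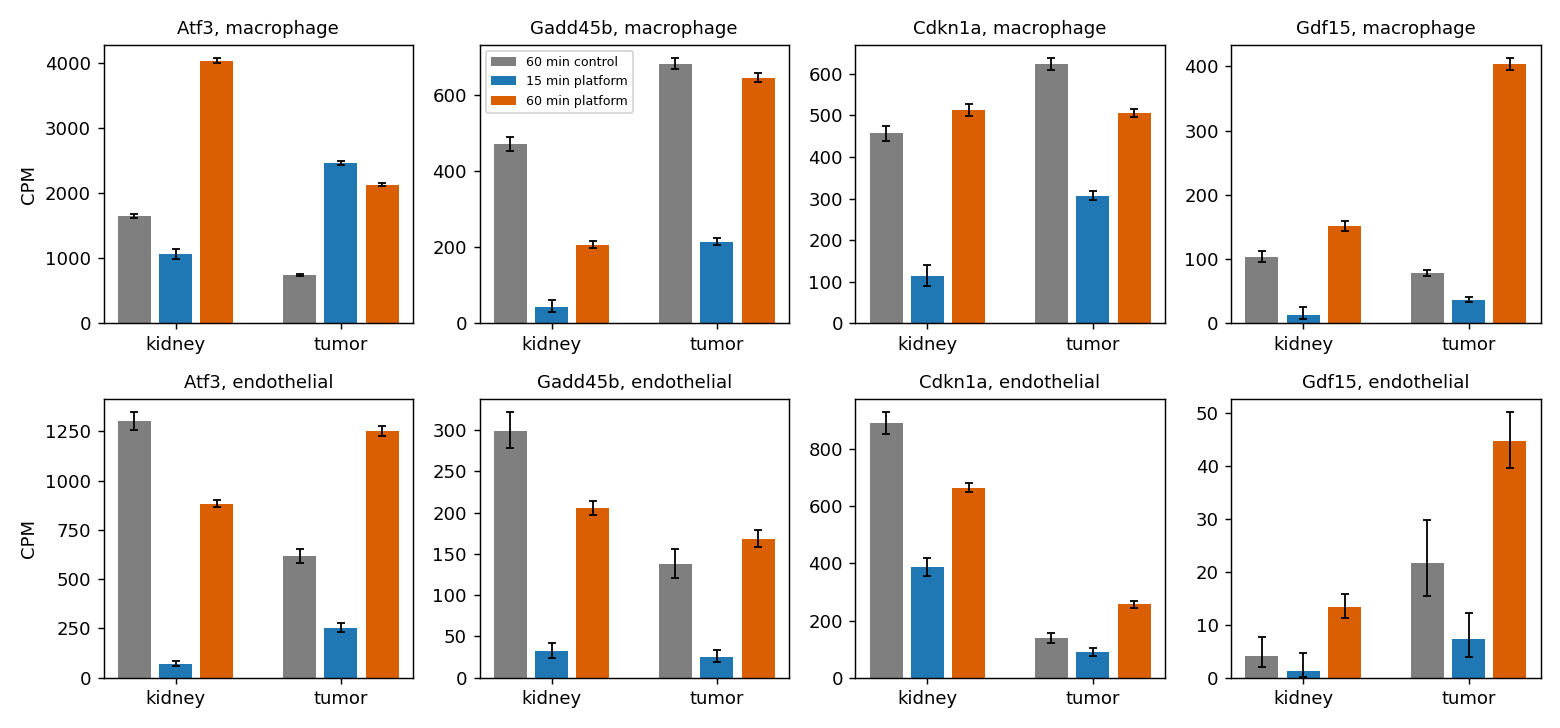
CPM (y axis, from 0) of Atf3, Gadd45b, Cdkn1a and Gdf15 in the macrophage (top) and endothelial (bottom) classes of kidney and tumor, with bars for the 60 min control, 15 min platform and 60 min platform libraries and exact 95% counting intervals. Gadd45b is lowest at 15 min in all 4 groups of bars (42.7, 214, 32.2 and 25.4 CPM), whereas Atf3 at 15 min is highest in tumor macrophages (2472 CPM) and lowest in both endothelial classes.

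Among the less numerous tumor classes, fibroblasts (40, 68 and 292 cells) had 1260, 394 and 645 CPM of Atf3, 365, 120 and 696 CPM of Gadd45b, 937, 338 and 1183 CPM of Gadd45g and 447, 129 and 298 CPM of Cdkn1a. At 15 min 5 of 7 tested members were at least 2-fold below the control in fibroblasts, beside 4.56% of genes. T cells numbered 266, 198 and 299. Their Atf3 was lowest in the control, at 17.5, 56.3 and 189 CPM, and so was their Gadd45b, at 130, 215 and 676 CPM. The 60 min level was at least 2-fold above the 15 min level for 5 of 6 tested members in tumor T cells, beside 3.90% of genes, and their median depth was 8132, 6175 and 4680 UMIs. Granulocytes (267, 107 and 66) had 2526, 1378 and 4338 CPM of Gadd45b and 249, 359 and 987 CPM of Atf3. Over all tumor classes tested, Gadd45b at 15 min had an interval below the control in 5 of 6, with T cells above it. From 15 to 60 min Gadd45b was above in 7 of 7 and Gadd45g in 6 of 6. Atf3 at 15 min was below the control in 3 of 6 tumor classes (epithelial, endothelial and fibroblast) and above it in 3 of 6 (macrophage, granulocyte and T).

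The genes around the members were counted by list, without a test. In kidney endothelial cells at 15 min, 7 of 12 immediate early genes were at least 2-fold lower (beside 3.24% of genes) and 0 higher, with a median log2 ratio of -1.47 against 0.12 over all tested genes. Among them Ier3, an early response gene, went from 1313 to 151 CPM and Egr1, a zinc finger factor, from 1435 to 390 CPM. Of the integrated stress response and ATF4 target list, 3 of 13 were at least 2-fold lower, among them Atf4 itself (346 to 167 CPM) and Ppp1r15a (283 to 83.2 CPM), whose product GADD34 reverses eIF2 phosphorylation. Of the p53 list 1 of 19 was at least 2-fold lower (Pmaip1, from 16 to 3 UMIs), of the other CDK inhibitors 0 of 4 and of the unfolded protein response 0 of 13. The Gadd45 partner list had 1 of 9 lower, Pcna at 48.9 to 23.9 CPM, and the mTORC1 list around Ddit4 0 of 11.

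In proximal tubule cells at 15 min, 10 of 12 immediate early genes were at least 2-fold lower, beside 1.05% of genes, with Egr1 at 21.9 to 0.898 CPM and Fos at 93.0 to 7.30 CPM. Of the p53 list 2 of 20 were lower, Btg2 (17.7 to 1.22 CPM), an antiproliferative p53 target, and Pmaip1 (8.46 to 4.23 CPM). The ATF4 list had 1 of 14 lower, Ppp1r15a at 5.71 to 2.71 CPM, and the unfolded protein response, CDK inhibitor, Gadd45 partner and mTORC1 lists 0 of 14, 0 of 3, 0 of 9 and 0 of 12.

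In kidney macrophages at 15 min, 1 of 12 immediate early genes was at least 2-fold lower (Ier3, 334 to 34.4 CPM, beside 5.67% of genes) and 1 of 12 higher (Fos, 1705 to 3816 CPM, beside 4.30%). At 60 min 6 of 12 were at least 2-fold above the control, beside 1.64% of genes, with Jun at 1927 to 4450 CPM, and Ppp1r15a went from 368 to 1825 CPM. Map2k3, a kinase upstream of p38 in the Gadd45 partner list, had 90.2 CPM in the control, 23.4 CPM at 15 min and 34.5 CPM at 60 min.

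Tumor macrophages at 15 min, where 8.32% of all tested genes were at least 2-fold higher and 4.24% lower, had 6 of 12 immediate early genes higher and 0 lower, with Egr1 at 216 to 1631 CPM, Jun at 621 to 3798 CPM and Fos at 822 to 4527 CPM. The same comparison had 6 of 19 genes of the p53 list at least 2-fold higher, among them Btg2 (637 to 2191 CPM) and Sesn1 (6.80 to 32.8 CPM), and 2 of 19 lower, among them Mdm2 (143 to 46.5 CPM), the ubiquitin ligase for p53. Of the ATF4 list 2 of 14 were lower, Slc7a11 (69.3 to 19.8 CPM), a cystine transporter, and Cebpb (1529 to 588 CPM). Map2k3 went from 297 to 52.8 CPM, and Txnip, which is regulated by glucose, from 31.5 to 131 CPM. At 60 min 5 of 12 immediate early genes were at least 2-fold above the control, beside 2.90% of genes, and Ppp1r15a went from 206 to 535 CPM. In tumor epithelial cells at 15 min, 1 of 12 immediate early genes was at least 2-fold higher (beside 1.08% of genes), 0 of 18 ATF4 list genes passed 2-fold and 3 of 12 Gadd45 partners were lower (beside 2.06%), among them Map2k3 at 149 to 62 CPM. In endothelial cells 1 of 12 immediate early genes was lower, Ier3 at 705 to 230 CPM, beside 2.03% of genes. The unfolded protein response list had 0 genes past 2-fold in either direction in the 6 classes at 15 min.

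The genes whose levels were most like each member's were ranked by the Pearson correlation of log2(CPM + 1) over classes in libraries, 35 points in kidney and 22 in the tumor, which share libraries and are not independent. In kidney Atf3 was nearest to Egr1 (r = 0.864), Zfp36 (0.786) and Cdkn1a (0.781), and Gadd45b to Ppp1r15a (0.866), Ccnl1 (0.851) and Ifrd1 (0.845). Cdkn1a was nearest to Ifitm3 (0.859), Zfand5 and Arf4, Gadd45a to Pnpla2 (0.823), Mindy1 and Sfn, and Gadd45g to Fbxo30 (0.773), Fndc3b and Nfix. Ddit3 was nearest to St3gal6 (0.770), Cebpb (0.767) and Gla, Ddit4 to Xrn1 (0.796), Nufip2 and Herc2, and Gdf15 to Plxdc2 (0.683), Rab3il1 and Fam213b. In the tumor Gadd45g was nearest to Il6 (0.949), P3h3 and Tpst1, Ddit3 again to Cebpb (0.849), then Ubap1 and Sgms2, and Gdf15 to Hspa5 (0.853), Selenop and Blvrb. Tumor Atf3 was nearest to Hebp1 (0.829), Neat1 and Klf6, Gadd45a to Eif1 (0.882), Hist1h2bc and Saa3, and Gadd45b to Stx11 (0.860), Birc3 and Pim1. Tumor Ddit4 was nearest to Emid1 (0.854), Paip2 and Magoh, and Cdkn1a to Ftl1 (0.870), Nuak2 and Hmox1. Cebpb was the gene near the same member, Ddit3, among the 3 nearest in both tissues.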

How the data were processed

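Libraries of 10x v3 chemistry were analysed, 1 for each tissue and condition. The authors deposited matrices of UMI counts, all whole numbers, made with Cell Ranger 3.1.0 on mm10 per the submitters' processing notes, with the 3 libraries of a tissue joined by an aggregation step that evens read depth, so UMIs it removed cannot be recovered. Cells were assigned to libraries by the number after the barcode, which a deposited table pairs with library names that match the labels' titles, and 0 columns of per-sample values were left unused.

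Cells were kept with 200 to 3000 genes and at most 50% mitochondrial UMIs in kidney, and 200 to 4000 genes and at most 25% in the tumor, as in the study. The gate required 3 of 8 markers of a class and a lead of 2 over any other, for 13 kidney and 10 tumor classes. No doublet caller was run, and doublets were limited only by the gene maximum and the gate lead. Summed UMIs of a class and library gave CPM with exact Poisson intervals, and ratios had exact binomial intervals. A gene counted as tested with at least 100 UMIs over the 3 libraries, and a difference was counted from 2-fold. Detection was compared after thinning cells to 1000 UMIs (seed 0). A ratio against 0 UMIs used a floor of 3 counts per library. No test across libraries was possible with 1 library per condition. The ratio code was tested on simulated counts with known folds.

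All 8 members are named, with at most 4 genes of each other list by the size of their ratio and the 3 genes most like each member (at least 1000 UMIs in the tissue, pseudocount 1). Members, lists and classes were chosen with earlier results of these data known. Promoter sequence came from RefSeq GRCm38.p6. Alternatives were all deposited cells, CPM without mitochondrial UMIs, cells weighted equally, a stricter gate (4 markers and a lead of 3), ratios divided by the median ratio, a minimum of 20 UMIs or none, 1.5-fold, thinned cells, and 3 added later (the control's makeup, at most 10% mitochondrial UMIs, shared barcodes left out). Python 3.11.15, numpy 2.4.6, scipy 1.17.1, pandas 2.3.3 and matplotlib 3.10.9 were used.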

Additional observations from a re-analysis of the deposited data

Results flagged for a closer look

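Several members moved one way in kidney and the other way in the tumor. Each condition had 1 library, so the difference between the tissues was not tested. The share of all genes with opposite directions was not counted. Over whole libraries at 15 min, the ratio to the control was 0.0382 in kidney and 1.04 in the tumor for Atf3, and 0.301 and 1.21 for Ddit4. Weighted by the control's makeup, these ratios were 0.444 and 1.17 for Atf3 and 0.826 and 1.10 for Ddit4. Both tumor directions turned with the processing, Atf3 to 0.896 when divided by the median ratio and to 0.977 with all deposited cells, and Ddit4 to 0.962 in thinned cells and 0.961 with cells weighted equally. In macrophages at 15 min, the ratio was 0.643 in kidney and 3.32 in the tumor for Atf3, and 0.475 and 1.12 for Ddit3. From 15 to 60 min macrophage Atf3 had ratios of 3.81 in kidney and 0.865 in the tumor. Divided by the median ratio, tumor macrophage Ddit3 at 15 min was 0.953 and tumor macrophage Atf3 from 15 to 60 min 1.01, so these directions turned too.

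In endothelial cells at 60 min, Atf3 had a ratio to the control of 0.678 in kidney and 2.03 in the tumor, and in granulocytes 0.654 and 3.96. The kidney granulocyte ratio rests on only 36 control cells and 46 cells at 60 min. In T cells at 15 min, Atf3 had a ratio of 0.0895 in kidney (0 UMIs, set to the floor of 3 counts) and 3.23 in the tumor, and Gadd45b 0.104 and 1.65. From 15 to 60 min T cell Ddit4 had ratios of 0.572 and 2.19. Kidney and tumor also differed in mouse line, sex and age of the mice, and these cannot be told apart from the tissue.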

How the results depend on the processing

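Of 536 recomputed counts of members past the fold limit, 500 stayed within 1.5 times and 36 did not. The 500 include groups and directions with no member past the limit before or after, such as higher at 15 min in whole kidney libraries. How many of the 500 were empty in this way was not counted. An empty count that stayed empty shows only that no member newly passed the limit, not that a difference held. Of 3149 ratios, 2345 stayed within their counting interval, and 9 that had been at least 2-fold changed direction. The remaining 795 left the interval, some of them from under 2-fold to the other side of 1. Of 2992 CPM values 1966 stayed within the counting interval, and of 672 counts over the other gene lists 594 stayed within 1.5 times, empty counts again included. With a stricter gate, the control's makeup or shared barcodes left out, all recomputed counts of members stayed within 1.5 times. An unchanged count can hold other genes. At the control's makeup, the whole-tumor count above the control at 60 min lost Gadd45g (1.56) and gained Ddit4 (2.06). A stricter gate could not change whole libraries. A minimum of 20 UMIs or none also left the counts of members within 1.5 times. These lower minimums could add no member, because all 8 were already tested in the groups recomputed. The minimum of 20 UMIs moved 34 of 336 counts over the other gene lists.

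With all deposited cells, 5 members were at least 2-fold lower at 15 min in whole kidney libraries (8 as reported). At 60 min 0 were at least 2-fold above the control in kidney endothelial cells (1 as reported, beside 1.13% of genes). In tumor endothelial cells 0 were as well (2 as reported), and in tumor macrophages 1 was lower at 15 min (3 as reported). With at most 10% mitochondrial UMIs, proximal tubule cells had 1 lower at 15 min, 0 higher and 1 lower at 60 min, and 2 higher from 15 to 60 min, and tumor endothelial cells 6 lower at 15 min and 0 higher at 60 min. Divided by the median ratio, whole kidney had 0 higher at 60 min, proximal tubule cells 1 lower at 60 min, tumor epithelial cells 4 lower at 15 min and 5 higher from 15 to 60 min, and tumor endothelial cells 5 lower at 15 min. With cells weighted equally, proximal tubule cells had 0 higher at 60 min and the whole tumor 1 lower at 15 min. In thinned cells, proximal tubule cells had 1 lower at 60 min, kidney macrophages 1 higher at 15 min and 1 lower from 15 to 60 min, and tumor endothelial cells 4 higher at 60 min. Without mitochondrial UMIs tumor endothelial cells had 0 higher at 60 min. These counts show how the calls moved with the processing. Where no share of all genes is given for a setting, they have no background and are not a result about the set.

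At 1.5-fold, whole kidney had 2 higher at 60 min, proximal tubule cells 6 higher and 1 lower at 60 min, kidney endothelial cells 2 lower and kidney macrophages 3 higher at 60 min. Whole tumor had 4 lower at 15 min, 4 higher at 60 min and 5 higher from 15 to 60 min, and epithelial cells 4, 2 and 5. Tumor endothelial cells had 8 lower at 15 min, and tumor macrophages 5 lower at 15 min and 6 higher from 15 to 60 min. At least as many of all genes pass 1.5-fold as 2-fold. Their share is not given here, so the 1.5-fold counts have no background.

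Of ratios at least 2-fold, those that changed direction were Cdkn1a of kidney T cells at 15 min in thinned cells (1.14), Atf3 of intercalated cells at 60 min with all deposited cells (1.30), Ddit4 of proximal tubule cells from 15 to 60 min at most 10% mitochondrial UMIs (0.909), and Gdf15 of fibroblasts from 15 to 60 min with all deposited cells (1.16) and at 60 min in thinned cells (0.191). Gdf15 of ungated tumor cells changed at 15 min with all deposited cells (0.387) and the stricter gate (0.955), and from 15 to 60 min in thinned cells (0.478) and with cells weighted equally (0.495). Of 160 ratios under 2-fold whose interval excluded no difference, 20 crossed 1 under at least 1 alternative. Among them, at most 10% mitochondrial UMIs turned proximal tubule Gadd45g at 15 min (0.677 to 1.21), and Cdkn1a (1.59 to 0.621) and Gadd45a (1.69 to 0.943) from 15 to 60 min. The cause of these changes was not tested.

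No paired analysis was possible because each tissue and condition had 1 library. Depth limits Gdf15 in most classes and Atf3 and Gadd45b in 15 min proximal tubule cells. Droplets of more than 1 cell were not called, and no difference has a replicate check.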

Other observations

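Detection of a pair of members in the same cell was counted within classes, and the pairs given here were chosen after their values were seen. Of 56 pairs of Atf3 with another member over 13 classes in libraries, the other member was found in a larger share of cells with Atf3 in 52 and in a smaller share in 4. Of all 330 ordered pairs it was in 280 and 50. These hold both orders of a pair, whose directions go together, so they are not independent. Pairs of other genes were not counted, so both counts have no background and are not a result about the set. Among the pairs with no higher share, Gadd45g was found in 18.9 and 19.1% of 60 min kidney macrophages with and without Atf3, and Cdkn1a in 35.2 and 39.1% of control tumor macrophages. After thinning to 1000 UMIs, Cdkn1a was found in 64.3% of kidney endothelial control cells with Atf3 and in 27.1% of those without, and in 56.8 and 26.5% at 60 min. Gadd45b was found in 31.4 and 12.3% of the same control cells with and without Atf3, and Gadd45g in 34.3 and 12.9%. In tumor epithelial cells Gadd45b was found in 16.7 and 8.95% of control cells, 12.9 and 4.68% of 15 min cells and 20.2 and 10.2% of 60 min cells with and without Atf3. In tumor macrophages at 15 min, Gadd45b was found in 19.4 and 8.36% and Gadd45g in 13.3 and 4.78% of cells with and without Atf3. Proximal tubule cells of the 60 min library had Gadd45g in 23.5 and 6.30% of cells with and without Atf3. In 60 min tumor epithelial cells Gadd45g was found in 0.680% of 147 cells with Ddit3 and 3.62% of those without. Cells of a library share their preparation, so these shares describe single libraries and were not tested.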
